A study of Mus musculus with 21 samples.

Results

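The 10 genes described here are immediate early genes: Fos, Fosb, Jun, Junb, Egr1, Arc, Npas4, Ier2, Nr4a1 and Dusp1. They were taken by symbol from a fixed list of genes that respond to neuronal activity and to tissue dissociation. The rule uses no measured value, but the list was chosen with earlier results of these data known. All 10 were found in both deposited tables, among 23587 genes in the table of 17 libraries and 22918 genes in the table of 4 libraries. RNA came from cells of the main olfactory epithelium, the sheet of the nose that holds the olfactory sensory neurons (OSN). Every mouse carried a construct for mCherry and HyperTRIBE, an RNA-editing domain, and every sample was dissociated with papain. In HT mice the construct was tetO-HyperTRIBE_mCherry, with the editing domain alone. In MexHT mice it was tetO-Mex3a_HyperTRIBE_mCherry, where the domain is joined to the RNA-binding protein Mex3a. The mice called gg8+OMP here had the genotype gg8tTA; OMPtTA and expressed the construct in immature and mature OSN. They gave 3 HT OSN, 6 MexHT OSN, 3 HT mCherry-negative and 5 MexHT mCherry-negative libraries. The mice called gg8 had gg8tTA as the sole driver, expressed it in immature OSN, and gave 2 libraries of MexHT OSN and 2 of mCherry-negative cells. By the labels, the mCherry-negative cells of a number came from the same mouse as the OSN of that number. They are a control from the same mouse or pool of mice, and they also hold OSN without mCherry. Construct-free mice and undissociated tissue were not analysed here, and the labels used give neither the age of the mice nor the number pooled in a library.

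Immediate early genes are transcribed within minutes of a stimulus, with no need for new protein, because the factors that switch them on are already bound or waiting in the cell. The serum response factor SRF acts through CArG boxes, and the cAMP- and calcium-regulated factor CREB acts through the cAMP response element (CRE). Fos and Jun proteins pair to form the AP-1 transcription factor, Egr1 and Nr4a1 are further transcription factors, and Dusp1 is a phosphatase that switches MAP kinases off again. Odorants raise cAMP and calcium in OSN, and neuronal activity induces this class of genes in many neurons. Enzymatic dissociation of tissue induces most of them too in many cell types.

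Of 7 members whose upstream windows could be searched, the 4 with 2 or more CRE half-sites are shown by their upstream stretches. They are RefSeq sequences of build GRCm38.p6, 5′ to 3′ on the strand of the gene, and end at the base before the start of transcription unless stated. Capitals mark the CRE (TGACGTCA) and its half-site (TGACG), on either strand; CGTCA is the half-site read on the other strand.
Fos, chr12:85473640-85473889, plus strand: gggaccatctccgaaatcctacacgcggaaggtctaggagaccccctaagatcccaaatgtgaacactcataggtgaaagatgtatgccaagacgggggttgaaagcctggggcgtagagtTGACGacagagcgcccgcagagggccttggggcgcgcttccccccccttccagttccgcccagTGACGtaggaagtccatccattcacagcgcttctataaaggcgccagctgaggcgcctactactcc
Nr4a1, chr15:101266596-101266845, plus strand, inside the span of the longer GENCODE gene: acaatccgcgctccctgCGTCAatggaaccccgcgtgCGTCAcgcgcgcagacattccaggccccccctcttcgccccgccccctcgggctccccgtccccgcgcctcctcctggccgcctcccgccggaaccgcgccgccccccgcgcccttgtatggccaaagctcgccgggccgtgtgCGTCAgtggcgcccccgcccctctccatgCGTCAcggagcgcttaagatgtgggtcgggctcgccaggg
Dusp1, chr17:26508520-26508722, minus strand, bases -250 to -48 from the start: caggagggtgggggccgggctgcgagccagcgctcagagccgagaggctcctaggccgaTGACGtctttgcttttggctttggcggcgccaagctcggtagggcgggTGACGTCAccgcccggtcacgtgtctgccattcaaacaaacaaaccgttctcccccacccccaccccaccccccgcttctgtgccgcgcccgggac
Npas4, chr19:4990128-4990157, minus strand, bases -186 to -157 from the start and inside an exon of the GENCODE gene: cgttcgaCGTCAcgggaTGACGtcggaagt
The Fos stretch held 2 half-sites, the Nr4a1 stretch 4, and the Dusp1 stretch a full CRE besides a half-site. Like that of Nr4a1, the Dusp1 stretch lies inside the span of the longer GENCODE gene, 26505590 to 26562128. The Npas4 stretch held 2 half-sites on opposite strands, reading away from each other. RefSeq windows of 250 bases could be searched for 7 members (Fos, Fosb, Jun, Junb, Npas4, Nr4a1 and Dusp1). A half-site occurred in 6 of these 7, all but Jun, and in 17.8% of 32851 promoters of the same length. The full CRE occurred in 1 of 7 and in 1.55% of promoters, and every full CRE also counts as 2 half-sites. The EGR motif GCGNGGGCG, searched on both strands, was found in Fosb and Nr4a1, and in 4.7% of promoters. The AP-1 motif TGANTCA and the CArG box were found in none of the 7 windows, and in 6.75% and 1.47% of promoters. Sites more than 250 bases upstream were not searched, nor were Egr1, Arc and Ier2. These members may therefore have such sites outside the windows. Whether any of these sites bears on the differences between fractions was not tested.

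Totals recovered from the TPM values were 7425287 to 12443133 counts in the gg8+OMP libraries and 10261268 to 15215673 in the gg8 libraries. TPM is a count per transcript length scaled to a fixed total per library, so levels of different genes within a table can be compared. Fos was covered by 2090 counts or more in every library, and Npas4, the least covered member, by 27 to 431 counts in the gg8+OMP table and 105 to 820 in the gg8 table. Mex3a, the fused gene, stood at 328 to 1271 TPM in gg8+OMP MexHT OSN and at 24.0 to 61.5 TPM in HT OSN, so these libraries matched their labels. The labelled OSN held the mature marker Omp at 682 TPM or more in gg8+OMP mice, and at 53.8 and 164 TPM in the gg8 mice, whose construct marks immature OSN. Of the gg8 OSN libraries replicate 2 stood apart: Gap43, an immature OSN marker, was at 93.8 TPM there and at 672 TPM in replicate 1, against 614 and 498 TPM in mCherry-negative cells. It had the fewest genes at 1 TPM or more of all libraries, 13917, and the counts of this pair differed most of 33 replicate pairs (chi-square per degree of freedom 126), while the 8 immature OSN markers summed to 5184 and 6277 TPM in the pair. Omp was present in every mCherry-negative library as well, at 46.9 to 2159 TPM in gg8+OMP mice and at 1937 and 3561 TPM in gg8 mice. Xist, a transcript of the inactive X chromosome, was at 58.4 TPM or more in all 6 MexHT OSN libraries and under 1 TPM in 2 of 3 HT OSN libraries. In 14 of 21 libraries Xist reached 1 TPM and so did 4 Y-linked genes on average. Such libraries may hold cells of more than 1 mouse, so a mouse in this text is a numbered pair of libraries that may be a pool. Each driver has 1 date in the library names, so the effects of driver and date cannot be told apart.

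Summed over the 10 genes, 1839 to 2633 TPM were found in HT OSN, 1973 to 2486 TPM in MexHT OSN and 2217 to 2566 TPM in gg8 OSN. The mCherry-negative sums were higher in every group: 3169 to 4966 TPM for HT, 4058 to 7864 TPM for gg8+OMP MexHT and 3562 to 3864 TPM for gg8 MexHT. Fos and Jun were the 2 most abundant members by mean TPM in all 6 groups, and Arc and Npas4 the 2 least abundant. In mCherry-negative cells of gg8+OMP MexHT mice Fos exceeded Jun in 5 of 5 libraries, at 1.14 to 1.52 times its TPM. In HT OSN it was below Jun in 3 of 3, at 0.495 to 0.867 times, and in MexHT OSN in 4 of 6, at 0.831 to 1.11 times. MexHT mCherry-negative replicate 1 had the highest level of its group for 9 of 10 members, and Npas4 was its exception.

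**Figure D1:**
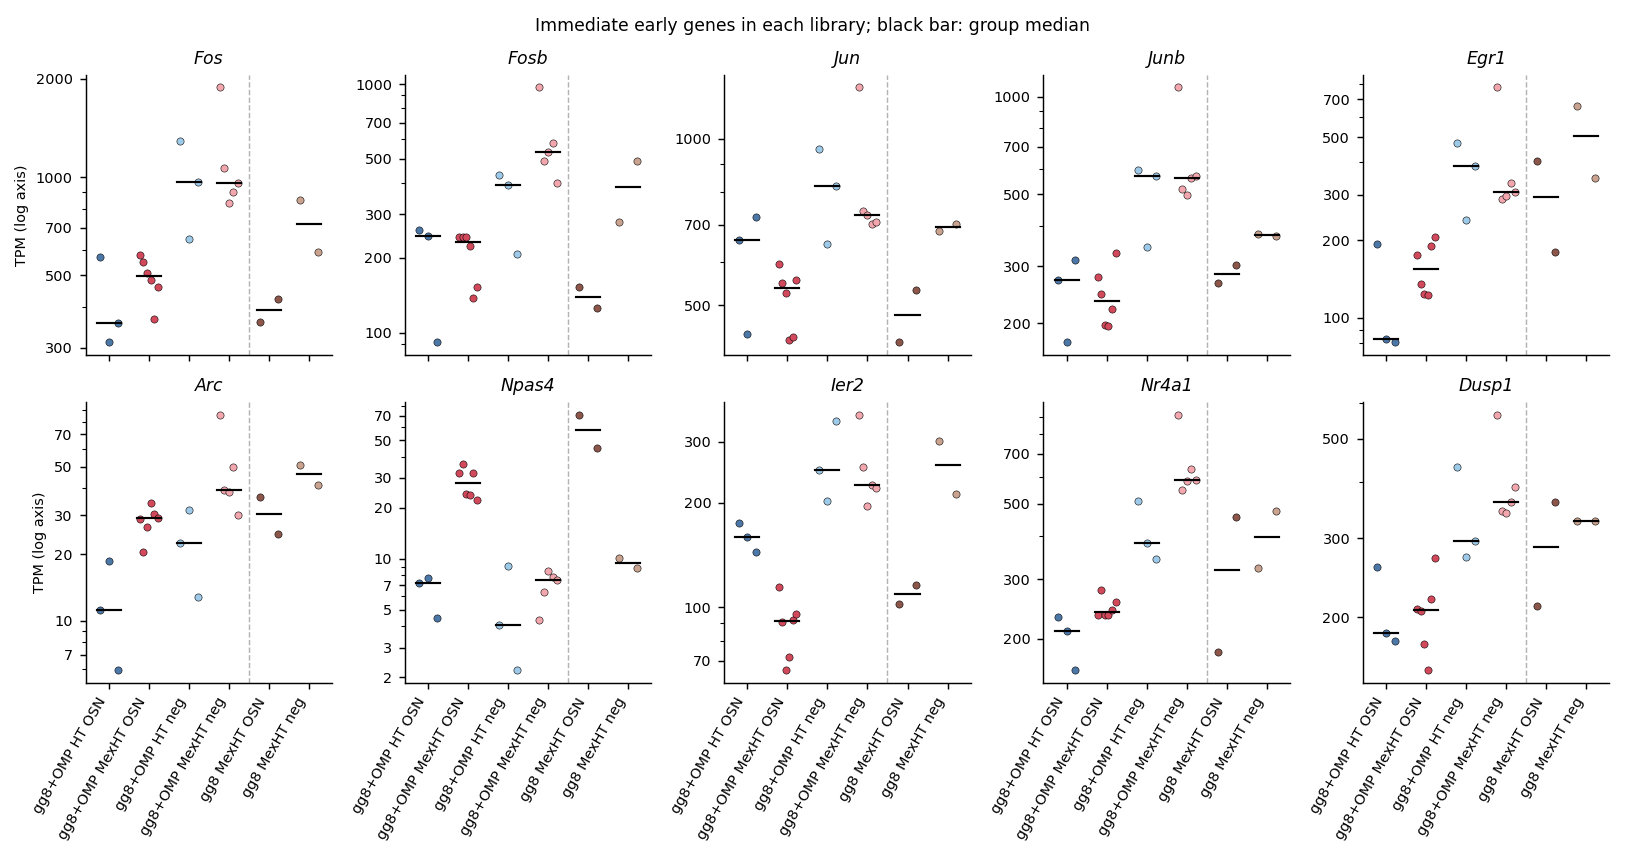
TPM of each of the 10 genes on a log axis, 1 point per library and a black bar for the median of each of the 6 groups; the dashed line parts the gg8+OMP table from the gg8 table, which were scaled separately (neg: mCherry-negative). For the first 6 genes named and for Ier2, Nr4a1 and Dusp1 the OSN medians lie below those of mCherry-negative cells in gg8+OMP mice, while Npas4 is highest in the 2 groups of MexHT OSN.

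In gg8+OMP MexHT mice, OSN held less RNA of 9 of the 10 genes than mCherry-negative cells did, and more Npas4. All 10 passed the test across all genes (limma on log2(TPM + 1), Benjamini-Hochberg adjusted over 16522 genes), against a background of 63.4% of genes called, 35.8% higher and 27.6% lower. The fall was between 1.56-fold for Jun and 2.81-fold for Fosb. The members' median log2 fold change was -1.19, beside 0.16 over all genes tested. Leaving out any 1 library, MexHT mCherry-negative replicate 1 included, left all 10 called. The groups did not overlap for 8 members lower and 1 higher in OSN, beside 43.1% of all genes tested, 19.6% lower and 23.4% higher. Scaling by median of ratios moved the median of all genes from 0.16 to 0.03, and the direction of no member changed. In bulk RNA such as this, fewer cells of a type and less RNA per cell cannot be told apart.

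Fos and Fosb encode the Fos partners of AP-1. Fos (chromosome 12, 85473890 to 85477273, plus strand, GENCODE M21 on GRCm38) stood at 369 to 576 (median 496) TPM in MexHT OSN and at 1882, 1069, 834, 901 and 956 TPM in MexHT mCherry-negative cells. The OSN values lay below all mCherry-negative values, a fall of 1.14 on the log2 scale ± 0.20 (SE; adjusted p = 2.72e-04). In HT mice Fos was at 569, 312 and 357 TPM in OSN and at 1289.5, 645 and 963 TPM in mCherry-negative cells. These 3 pairs did not overlap either, with a log2 fold change of -1.22 ± 0.32 and an adjusted p of 0.0553, which missed the threshold of 0.05. In gg8 mice it was at 359 and 422 TPM against 851 and 588 TPM (adjusted p = 0.118). Fosb (chromosome 7, 19302696 to 19310051, minus strand) was at 137 to 243 (median 232) TPM in MexHT OSN and at 970.3, 489, 535, 578 and 398 TPM in MexHT mCherry-negative cells. It fell by 1.49 ± 0.23 on the log2 scale (adjusted p = 1.05e-04), again with no overlap. In HT mice Fosb was at 258, 244 and 91.4 TPM in OSN and 431, 394 and 208 TPM in mCherry-negative cells, where replicate 3 was low in both fractions and the groups overlapped (adjusted p = 0.219). In the gg8 table it was at 153 and 126 TPM against 279 and 489 TPM (adjusted p = 0.0565).

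Jun and Junb encode the Jun partners of AP-1, and Junb protein can also restrain Jun. Jun (chromosome 4, 95049034 to 95052222, minus strand) had the smallest fall of the members in MexHT mice. It was at 433 to 594 (median 537) TPM in OSN and 1238, 739, 729, 700.3 and 706 TPM in mCherry-negative cells, a log2 fold change of -0.64 ± 0.16 (adjusted p = 0.00344). In HT mice its OSN values of 656, 444 and 722 TPM overlapped the mCherry-negative values of 958, 647 and 820.5 TPM (adjusted p = 0.241). Junb (chromosome 8, 84974484 to 84978718, minus strand) was at 196 to 329.8 (median 234) TPM against 1068, 520.1, 498, 560.4 and 571 TPM in MexHT mice and fell by 1.35 ± 0.20 on the log2 scale (adjusted p = 9.31e-05). In HT mice Junb was at 272, 175 and 314 TPM in OSN and 595, 344 and 570.1 TPM in mCherry-negative cells, without overlap (adjusted p = 0.0729). In the gg8 mice Jun was at 429 and 532 TPM in OSN and 683 and 702 TPM in mCherry-negative cells (adjusted p = 0.227). Junb there was at 266 and 302 TPM against 378 and 372 TPM (adjusted p = 0.316).

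Egr1, a zinc-finger factor, and Nr4a1, an orphan nuclear receptor, were the 2 members called in HT mice as well. Egr1 was at 123 to 206 (median 155) TPM in MexHT OSN and 780.2, 289, 296, 331 and 307 TPM in MexHT mCherry-negative cells (log2 fold change -1.24 ± 0.25, adjusted p = 9.36e-04). In HT mice it was at 193, 83.0 and 80.4 TPM in OSN and 476, 239.5 and 386 TPM in mCherry-negative cells and fell by 1.69 ± 0.40 (adjusted p = 0.0412). Its highest OSN value there came from the mouse with the highest mCherry-negative value. In gg8 mice Egr1 was at 406 and 180.3 TPM in OSN and 659 and 348 TPM in mCherry-negative cells, and the groups overlapped. Nr4a1 (chromosome 15, 101254269 to 101274795, plus strand) was at 235 to 278 (median 239) TPM in MexHT OSN and 911, 548, 581, 631 and 586 TPM in MexHT mCherry-negative cells, a fall of 1.37 ± 0.13 (adjusted p = 1.64e-06). In HT mice it was at 233, 210.4 and 162 TPM in OSN and 509, 384 and 343 TPM in mCherry-negative cells and fell by 1.02 ± 0.20 (adjusted p = 0.0226). In gg8 mice it was at 183 and 455 TPM against 323 and 474 TPM, with overlap (adjusted p = 0.543).

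Ier2, a nuclear protein of the early growth response, and the phosphatase Dusp1 followed the same order of fractions. Ier2 (chromosome 8, 84661331 to 84662852, minus strand) was at 66.0 to 114 (median 91.3) TPM in MexHT OSN against 358, 253, 196, 225 and 221 TPM in MexHT mCherry-negative cells, a fall of 1.48 ± 0.17 on the log2 scale (adjusted p = 1.04e-05). In HT mice Ier2 was at 174, 159.8 and 145 TPM in OSN and 249, 203 and 343 TPM in mCherry-negative cells (adjusted p = 0.0678). In gg8 mice it was at 102 and 116 TPM and 302 and 211 TPM (adjusted p = 0.0566). None of these 3 pairs of groups overlapped. Dusp1 (chromosome 17, 26505590 to 26562128, minus strand) was at 153 to 271 (median 207) TPM in MexHT OSN and 565, 345, 342, 362 and 390.2 TPM in MexHT mCherry-negative cells, a fall of 0.96 ± 0.16 (adjusted p = 2.61e-04). In HT mice Dusp1 was at 259, 184 and 177 TPM in OSN and 433, 272 and 297 TPM in mCherry-negative cells, again without overlap (adjusted p = 0.0911). The gg8 OSN libraries, at 212 and 362 TPM, lay on either side of the mCherry-negative libraries, both at 327 TPM.

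Arc and Npas4 are the members tied most closely to neurons: Arc acts at synapses, and Npas4 is a transcription factor induced by calcium entry. Arc (chromosome 15, 74669083 to 74672570, minus strand) was at 20.4 to 34.0 (median 29.1) TPM in MexHT OSN and 85.9, 39.4, 38.2, 49.6 and 30.3 TPM in MexHT mCherry-negative cells. The groups overlapped, and Arc fell by 0.68 ± 0.23 (adjusted p = 0.0193). In HT mice it was at 11.2, 18.7 and 5.97 TPM in OSN and 22.4, 31.9 and 12.8 TPM in mCherry-negative cells, and in gg8 mice at 36.5 and 24.6 TPM and 51.0 and 41.3 TPM. Neither difference passed the test (adjusted p = 0.21 and 0.308). Npas4 (chromosome 19, 4984355 to 4990316, minus strand) went the other way. It was at 22.1 to 36.3 (median 28.0) TPM in MexHT OSN and at 4.38, 6.40, 8.49, 7.84 and 7.50 TPM in MexHT mCherry-negative cells, a rise of 3.72-fold (log2 fold change 1.90 ± 0.18, adjusted p = 2.40e-06). In gg8 MexHT mice it was at 70.6 and 45.2 TPM in OSN and 10.1 and 8.89 TPM in mCherry-negative cells, a rise of 5.50-fold (log2 fold change 2.46 ± 0.42, adjusted p = 0.0283). In HT mice its OSN values of 7.21, 7.73 and 4.48 TPM overlapped the mCherry-negative values of 4.08, 9.02 and 2.21 TPM (log2 fold change 0.42 ± 0.45, adjusted p = 0.527). Npas4 exceeded Arc in both gg8 OSN libraries and in 3 of 6 gg8+OMP MexHT OSN libraries, and in none of the mCherry-negative or HT OSN libraries.

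By count, 2 of 10 members were called lower in HT OSN than in HT mCherry-negative cells and none higher, where 11.3% of 17027 genes were called, 2.18% higher and 9.11% lower. The OSN and mCherry-negative cells of a number share a mouse, and with the mouse as a block 9 of 10 were called lower, Npas4 being the exception, where that fit called 29.2% of all genes, 2255 higher and 2712 lower. The blocked adjusted p was 0.00344 for Fos, 0.00949 for Fosb, 0.0448 for Jun, 0.00357 for Junb, 0.0146 for Arc, 0.0423 for Ier2 and 0.00721 for Dusp1. The groups did not overlap for 6 members, all lower in OSN, beside 41% of all genes tested, 18% lower and 22.9% higher. Without the block the calls depended on single libraries. Egr1 missed the threshold without mCherry-negative replicate 1 (adjusted p = 0.149), mCherry-negative replicate 3 (0.102), OSN replicate 2 (0.134) or OSN replicate 3 (0.0949). Nr4a1 missed it without mCherry-negative replicate 1 (0.0782) or OSN replicate 1 (0.0515), 2 (0.0751) or 3 (0.0543). Without mCherry-negative replicate 2, 5 members were called: these 2 with Fos (0.0229), Junb (0.0258) and Ier2 (0.0217), in a fit that called 24.5% of all genes, 1973 higher and 2210 lower. Voom on recovered counts called 1061 genes, 7.45% of them higher in OSN against 19.3%, and Nr4a1 as the 1 member. In gg8 MexHT mice Npas4 was the 1 member called, where 8.32% of 16490 genes were called, 1.12% higher and 7.2% lower. There 6 members were lower and 1 higher without overlap, beside 63.6% of all genes tested, 30.2% lower and 33.5% higher. The Npas4 call was lost without mCherry-negative replicate 1 (adjusted p = 0.272), mCherry-negative replicate 2 (0.386) or OSN replicate 2 (0.097), and each of these 3 fits called 0 genes in all. Without OSN replicate 1, Fosb joined Npas4 (adjusted p = 0.0499), so 2 of 10 members were called where 22.8% of all genes were. With voom the median of all genes moved from 0.09 to -0.05, and Npas4 was called there too.

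Each numbered pair of libraries was taken as 1 mouse, though it may be a pool. Mouse by mouse, the direction was the same in nearly all of the 10 mice with both fractions. Fos, Fosb, Jun, Junb, Egr1, Ier2 and Nr4a1 were lower in OSN than in the mCherry-negative cells of the same mouse in 10 of 10 mice, and Arc and Dusp1 in 9 of 10. The median ratio of OSN to mCherry-negative TPM was lowest for Ier2, at 0.387, and highest among these 9 for Jun, at 0.686. Npas4 was higher in OSN in 9 of 10 mice, with ratios from 0.856 in 1 HT mouse to 7.38, and a median of 3.65. For Npas4 the 3 HT mice gave ratios of 0.856 to 2.02, below the 2.83 to 7.38 of the 5 gg8+OMP MexHT mice and the 5.08 and 7.01 of the gg8 mice.

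**Figure D2:**
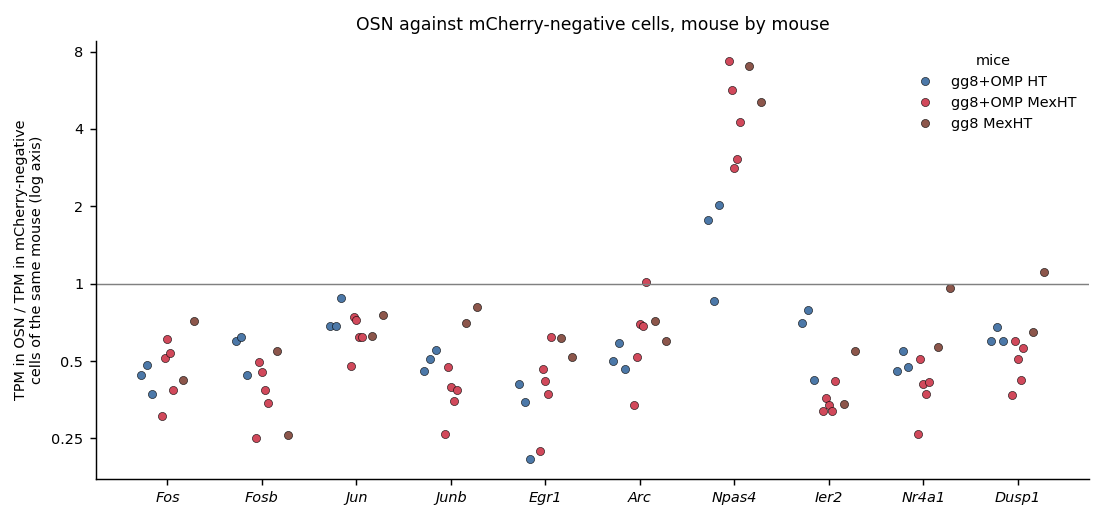
Ratio of TPM in OSN to TPM in the mCherry-negative cells of the same mouse, on a log axis, for each of the 10 genes; 1 point per mouse, 3 gg8+OMP HT, 5 gg8+OMP MexHT and 2 gg8 MexHT mice, and the grey line marks equal levels. Points for Npas4 lie above the line in 9 of 10 mice and points for 7 of the genes lie below it in 10 of 10. A mouse is a numbered pair of libraries and may be a pool.

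The fractions differed in cell types along with these genes. The shares of all genes called in each pair of fractions are those given above. Between MexHT OSN and MexHT mCherry-negative cells, all 8 granulocyte markers, all 8 connective tissue and vessel markers and all 4 basal cell markers were called lower in OSN. The summed granulocyte markers ran from 131 to 319 TPM in MexHT OSN and from 10939 to 14258 TPM in MexHT mCherry-negative cells. The summed connective tissue and vessel markers ran from 131 to 242 TPM and from 10966 to 23538 TPM. Of 10 immune cell markers 7 were lower and 1 higher, with sums of 287 to 567 TPM in OSN and 2242 to 3113 TPM in mCherry-negative cells. Basal cell markers summed to 9.12 to 16.9 TPM in OSN and 192 to 1079 TPM in mCherry-negative cells. Of 6 progenitor markers 4 were lower, of 6 sustentacular cell markers 2, and of 5 ensheathing glia markers 1 was lower and 1 higher. Of 8 immature OSN markers 7 were higher in OSN, with sums of 4365 to 5162 TPM against 1763 to 3306 TPM, and of 10 mature OSN markers 1 was higher. No marker of these lists was at 0 in all libraries of a group. In HT mice the same 8 granulocyte and 4 basal markers and 6 of 8 connective tissue markers were called lower in OSN, and 4 of 10 immune cell markers higher. In gg8 mice 7 of 10 mature OSN markers were called lower in OSN (median log2 fold change -4.28), with sums of 275 to 720.5 TPM against 6904 to 12388 TPM. Of the other lists there, 7 of 8 granulocyte, 6 of 8 connective tissue and vessel, 4 of 10 immune cell, 2 of 6 progenitor and 1 of 4 basal cell markers were lower, and 1 of 8 immature OSN markers was higher. Their part in the differences of the immediate early genes was not tested.

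**Figure D3:**
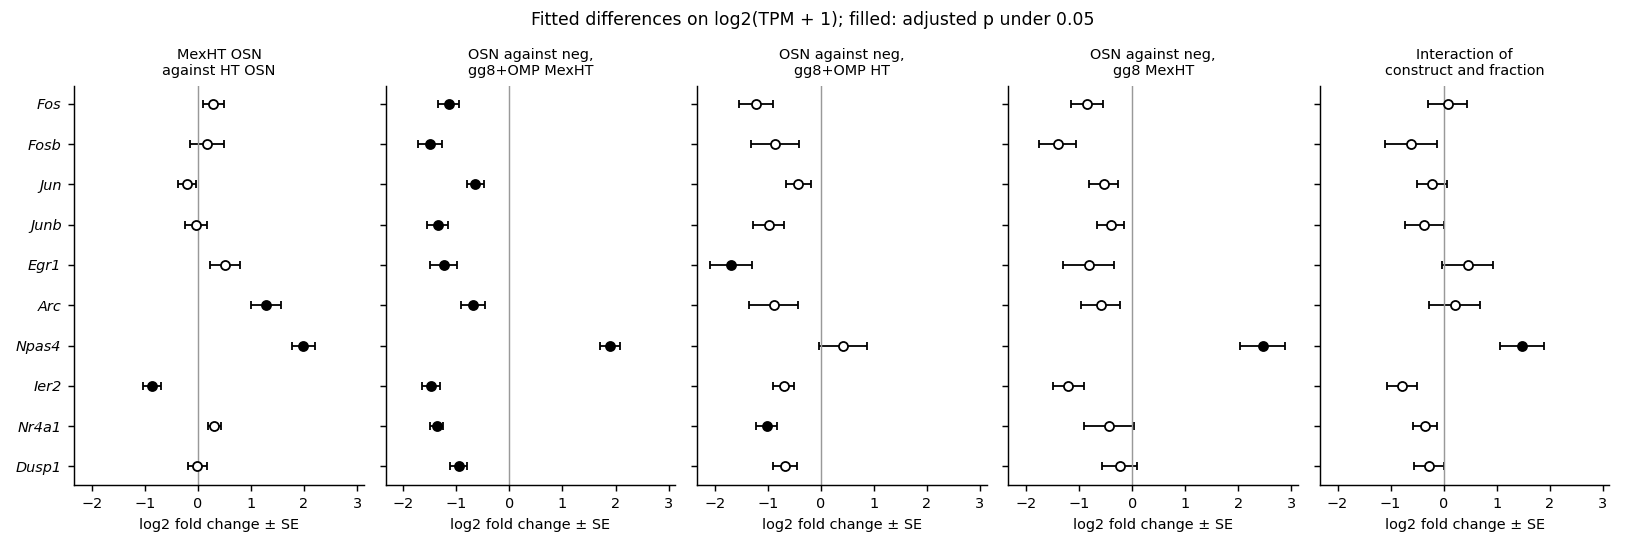
Fitted log2 fold change with its standard error (horizontal bar) for each of the 10 genes in 5 comparisons; filled circles have an adjusted p under 0.05 (neg: mCherry-negative). Between fractions 9 genes lie left of 0 and Npas4 right of it, and between constructs within OSN the filled circles are Arc and Npas4 on the right and Ier2 on the left.

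MexHT OSN, with the Mex3a fusion, were compared with HT OSN, with the editing domain alone, in gg8+OMP mice. These groups also differed in cell type markers and, but for HT replicate 2, in Xist level. The part of the fusion cannot be told apart from these. Npas4 and Arc were higher and Ier2 lower in MexHT OSN, and the other 7 did not pass the test. These 3 of 10 were called, beside 36.8% of 16067 genes in all, 19.9% higher and 16.8% lower. The members' median log2 fold change was 0.23, and that of all genes tested 0.03.

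Npas4 had the largest difference. Its 6 MexHT OSN values, 22.1 to 36.3 (median 28.0) TPM, all lay above the 3 HT OSN values of 7.21, 7.73 and 4.48 TPM. The rise was 3.95-fold (log2 fold change 1.98 ± 0.21, adjusted p = 2.10e-04). Arc was at 20.4 to 34.0 (median 29.1) TPM in MexHT OSN and at 11.2, 18.7 and 5.97 TPM in HT OSN, without overlap, and rose 2.44-fold (log2 fold change 1.29 ± 0.28, adjusted p = 0.00617). Ier2 was at 66.0 to 114 (median 91.3) TPM against 174, 159.8 and 145 TPM, with every MexHT library below every HT library. It fell 1.82-fold (log2 fold change -0.86 ± 0.16, adjusted p = 0.00306). Nr4a1 did not overlap either, at 235 to 278 (median 239) TPM in MexHT OSN and 233, 210.4 and 162 TPM in HT OSN, and had an adjusted p of 0.0684. The other 6 overlapped: log2 fold changes were 0.29 ± 0.20 for Fos (adjusted p = 0.271), 0.17 ± 0.32 for Fosb (adjusted p = 0.713), 0.51 ± 0.28 for Egr1 (adjusted p = 0.177) and -0.21 ± 0.17 for Jun (adjusted p = 0.338). For Junb the log2 fold change was -0.03 ± 0.21 and for Dusp1 -0.01 ± 0.18 (adjusted p = 0.911 and 0.97). By groups of libraries that did not overlap, 3 members were higher and 1 lower, where 38.4% of all genes tested did not overlap, 21.5% higher and 16.9% lower.

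Several of these calls turned on the fit. With the Xist level as a covariate Npas4 stayed called, while Arc (log2 fold change 0.42, adjusted p = 0.529) and Ier2 (-0.79, adjusted p = 0.172) were not; that fit called 329 genes in all, against 5907. Xist and construct are nearly the same split here, since the single HT mouse with Xist above 1 TPM was replicate 2. HT OSN replicate 3 had the lowest HT OSN values of Npas4, Arc and Ier2 (4.48, 5.97 and 145 TPM). It also held the most Ptprc, an immune cell marker, at 78.4 TPM against 24.2 and 21.0 TPM in replicates 1 and 2. Npas4, Arc and Ier2 stayed called in each limma fit that left out 1 library (highest adjusted p = 0.00175, 0.0244 and 0.0191). HT OSN replicate 1 had the highest HT value for 6 members. Without it 6 members were called: Fos (log2 fold change 0.54, adjusted p = 0.0489), Egr1 (0.92, adjusted p = 0.016) and Nr4a1 (0.42, adjusted p = 0.0468) joined the 3. That fit called 3745 of 16017 genes (23.4%), 1950 higher and 1795 lower. Nr4a1 joined the 3 under voom as well (0.37, adjusted p = 0.0378), where 37.9% of all genes were called.

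Marker lists differed between the same libraries, where 36.8% of all genes were called, 19.9% higher and 16.8% lower. In MexHT OSN 9 of 10 mature OSN markers were called lower, with sums of 1879 to 5869 TPM against 8016 to 12597 TPM in HT OSN. Of 8 immature OSN markers 6 were called higher, with sums of 4365 to 5162 TPM against 2649 to 2904 TPM. All 10 immune cell markers were called lower, with sums of 287 to 567 TPM against 1257 to 5294 TPM. Of the remaining lists, 2 of 6 progenitor markers were called higher and 1 connective tissue marker lower, and no sustentacular, basal, granulocyte or ensheathing glia marker was called. Their part in the differences of Npas4, Arc and Ier2 was not tested.

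The 2 constructs were also compared in mCherry-negative cells, which are not shown to be free of the construct. Mex3a was at 57.8 to 207 TPM in MexHT and at 29.3, 58.4 and 74.3 TPM in HT mCherry-negative cells, with overlap. Whether these cells held construct RNA was not tested. No member was called, and limma called 0 of 16860 genes (0% of genes), while 3465 had an unadjusted p under 0.05. The other fits called 0 to 24 genes. Nr4a1 had the smallest member p, at 911, 548, 581, 631 and 586 TPM in MexHT and 509, 384 and 343 TPM in HT mCherry-negative cells, without overlap (log2 fold change 0.66 ± 0.20, adjusted p = 0.218). It was the 1 member whose groups did not overlap, beside 8.71% of all genes tested, 3.64% higher and 5.07% lower. Arc and Fosb had log2 fold changes of 1.08 ± 0.37 and 0.79 ± 0.32 (adjusted p = 0.218 and 0.231). Npas4 was at 4.38, 6.40, 8.49, 7.84 and 7.50 TPM and 4.08, 9.02 and 2.21 TPM, with a log2 fold change of 0.51 ± 0.36 (adjusted p = 0.422).

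Whether the difference between MexHT and HT libraries differed between fractions was tested as an interaction term in a fit of all 17 gg8+OMP libraries. Npas4 was the 1 member of 10 called, with a log2 difference of differences of 1.48 ± 0.42 (adjusted p = 0.0316), where 12.4% of 16785 genes were called, 7.05% higher and 5.37% lower. With another scaling, by median of ratios, the split over all genes moved from 56.8% higher of those called to 40.4%, and Npas4 stayed called. The Npas4 call was lost without HT mCherry-negative replicate 1 (adjusted p = 0.0531) or 2 (0.0926), or HT OSN replicate 3 (0.0876). It also missed the threshold with a pseudocount of 0.1 (0.0531) and with voom on recovered counts (0.053). Ier2 had a value of -0.79 ± 0.29 (adjusted p = 0.0813), and with the mouse as a block -0.81 (adjusted p = 0.0249). Without HT mCherry-negative replicate 3 Ier2 was called too (adjusted p = 0.0347). The other 8 had adjusted p values of 0.350 to 0.923. Of the marker lists, all 10 immune cell markers, 1 of 4 basal cell and 1 of 8 connective tissue and vessel markers were called lower. Of 8 immature OSN markers 3 were called higher. No mature OSN, progenitor, sustentacular, granulocyte or ensheathing glia marker was called. Their part in the Npas4 value was not tested.

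The rest of the pathway was read from lists of its transcription factors, feedback genes, upstream factors, delayed genes and heat shock genes. Between the MexHT fractions 63.4% of all genes were called, 35.8% higher and 27.6% lower in OSN. Of 17 other rapid response transcription factors, 13 were called lower and 1 higher in MexHT OSN than in MexHT mCherry-negative cells, with a median log2 fold change of -1.42. Myc was at 5.09 ± 1.63 TPM (SD, n = 6) in OSN and 67.7 ± 16.5 TPM (SD, n = 5) in mCherry-negative cells. Atf3, a stress-induced factor, was at 75.3 ± 17.3 TPM and 481 ± 241 TPM. The 1 called higher was Egr4, at 18.7 to 40.2 TPM in MexHT OSN and 2.88 to 8.30 TPM in MexHT mCherry-negative cells, a rise of 5.07-fold (adjusted p = 6.67e-06). In HT and in gg8 mice the Egr4 groups overlapped. Ratios of OSN to mCherry-negative TPM there ran from 0.641 to 2.50 in HT mice and from 0.274 to 2.57 in gg8 mice. Of 17 feedback and turnover genes 15 were called lower, with a median of -1.65. Zfp36, which speeds the decay of cytokine mRNAs, fell 10.7-fold and Ier3, an anti-apoptotic early gene, 9.94-fold. Of 16 upstream factors 6 were lower and 3 higher, the latter including the CREB coactivator Crtc1 (2.66-fold) and the SRF partner Elk1 (1.97-fold). Mef2c fell 4.83-fold and the kinase Rps6ka3 2.08-fold. Of 9 delayed activity genes tested 3 rose and 3 fell. Homer1, a synaptic scaffold, rose 1.28-fold and the prohormone convertase Pcsk1 1.83-fold. Ptgs2, which makes prostaglandins, fell 7.14-fold and Inhba, an activin subunit, 7.32-fold. Of 10 heat shock genes 4 fell, among them Hspa1a (7.68-fold) and Hspa1b (7.57-fold), near-identical neighbours whose reads may have been shared between them. Of 4 activity-linked genes of OSN 2 were called higher, the adhesion genes Kirrel3 (3.48-fold) and Pcdh10 (2.44-fold). That list does not fix the direction in which activity moves each gene, so these rises are no reading of activity.

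In HT mice 7 of the 17 transcription factors, 7 of the 17 feedback genes, 2 of 8 delayed activity genes and 1 of 10 heat shock genes were called lower in OSN and none higher, beside 9.11% lower and 2.18% higher over all genes. In gg8 mice 4 of the transcription factors, 2 of the feedback genes and 1 delayed activity gene were lower, and 3 of 4 activity-linked genes of OSN as well, while 1 upstream factor was higher, beside 7.2% lower and 1.12% higher over all genes.

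Between MexHT and HT OSN the same lists split, where 36.8% of all genes were called, 19.9% higher and 16.8% lower. Of the 17 transcription factors 7 were called higher and 1 lower, with a median log2 fold change of 0.42 beside 0.03 over all genes. Egr4 was at 32.4 ± 7.63 TPM (SD, n = 6) in MexHT OSN and 10.0 ± 6.82 TPM (SD, n = 3) in HT OSN, and Fosl1, a further AP-1 subunit, at 37.2 ± 3.47 TPM and 10.9 ± 2.31 TPM. Atf3 fell 1.77-fold. Of 17 feedback genes 2 rose and 3 fell. The CREB-pathway kinase Sik1 rose 2.88-fold and Dusp4, a phosphatase like Dusp1, 2.78-fold. Ier3 fell 4.02-fold and Zfp36 3.39-fold. Of 16 upstream factors 4 rose, Crtc1 (2.08-fold) and Elk1 (1.90-fold) most, and 4 fell, Mef2c (2.65-fold) and the kinase Camk2d (2.33-fold) most. Of 9 delayed activity genes 3 rose and 2 fell. Scg2, a secretory granule protein, rose 5.32-fold and Homer1 1.84-fold. Ptgs2 fell 2.11-fold and Nptx2, a secreted synaptic pentraxin, 1.94-fold. Of 4 activity-linked genes 1 fell, S100a5, a calcium-binding protein of mature OSN, from 2581 ± 629 TPM (SD, n = 3) to 539 ± 298 TPM (SD, n = 6). Of 10 heat shock genes 3 rose, including Hspe1 (1.65-fold) and Hsph1 (1.44-fold). Of the interaction tests, 1 transcription factor (Atf3) and 5 feedback genes were called, all in the direction of a lower OSN to mCherry-negative ratio in MexHT mice. Besides these, 2 upstream factors and 1 delayed gene were called in each direction. Over all genes that test called 12.4%, 7.05% higher and 5.37% lower.

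**Figure D4:**
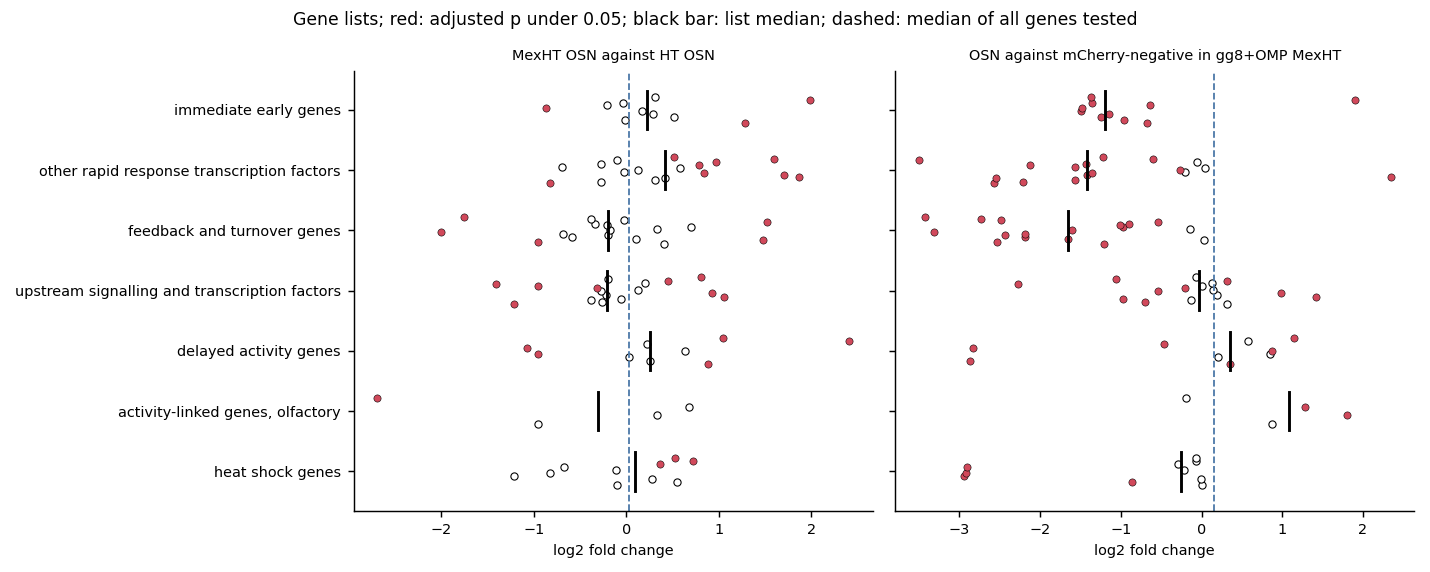
Log2 fold change of each gene tested in the 7 lists (points, spread vertically for display) for MexHT against HT OSN and for OSN against mCherry-negative cells in gg8+OMP MexHT mice; red points have an adjusted p under 0.05, the black bar is the list median and the dashed line the median of all genes tested. In the right panel the first 3 lists lie mostly left of the dashed line, with medians of -1.19, -1.42 and -1.65, and Npas4 and Egr4 lie on its right.

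Across the 17 gg8+OMP libraries, log2(TPM + 1) of the 9 members other than Npas4 correlated with one another at a Pearson r of 0.15 to 0.94 (median 0.80 over 36 pairs). Npas4 correlated with them at -0.88 to 0.18 (median -0.54 over 9 pairs). These libraries share mice, fractions and constructs, so the values describe this set of samples. Among 12588 genes, those most like Fos were Socs3 (0.947), Cdo1 (0.935), Snora74a (0.934), Adh7 (0.934) and Foxa1 (0.933). Those most like Egr1 were Arhgef17 (0.952), Egr2 (0.942), Adgra3 (0.928), Cdo1 (0.926) and Eps8l2 (0.926).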

How the data were processed

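RNA of sorted cells was made into libraries from 10 ng of input with a stranded total RNA kit of the SMARTer Pico type, per the labels' protocols. The deposited values are TPM, made by the authors and scaled to 1000000 per library in each of 2 tables, 17 and 4 libraries, which were never tested against each other. FastQC, cutadapt, STAR, bedtools and build mm10 are named in the submitters' processing notes, while the counter, annotation and strand setting are not given in the sources used here. Symbols turned into dates were dropped. The members and gene lists were chosen with earlier results of these data known.

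Genes averaging 1 TPM or more over the fitted libraries were tested as log2(TPM + 1) with limma 3.58.1 (R 4.3.3), trended empirical Bayes, two-sided, with Benjamini-Hochberg adjustment over all genes tested and a threshold of 0.05. Fold changes are on that scale and understate those of low genes. Each of 6 comparisons fitted only its own groups. Whole reads were recovered from the TPM steps for 99.9958% of genes in the larger table (within 0.01 of a whole count) and 99.8553% in the smaller (within 0.05, or slightly more at high counts), and served for depth and for voom as an alternative. Other alternatives were a pseudocount of 0.1, no filter, median-of-ratios scaling, the replicate number as a block, all 4 gg8+OMP groups in one fit, Xist as a covariate and leaving out each library. OSN and mCherry-negative cells of a number come from the same mouse per the labels; deviations from the group means correlated at 0.18 to 0.47 for HT, -0.11 to 0.42 for gg8+OMP MexHT and 0.02 for gg8 mice. The mCherry-negative libraries of a number in MexHT and HT mice, which are different mice, also deviated together, at 0.23 to 0.42. No 2 replicates were alike within sampling noise. Among gg8+OMP MexHT OSN, replicates 1 to 4 differed least from one another (chi-square per degree of freedom 3.53 to 10.9). They differed more from replicates 5 and 6 (25.2 to 71.8). Replicate 5 had the most Mex3a of the 6, 1271 TPM, and the least Omp, 682 TPM. Among HT OSN, replicate 3 differed more from replicates 1 and 2 (29.7 and 30.7) than those did from each other (6.91). The labels tie each number to a mouse but do not say how mice were raised or pooled, so p-values measure the spread between these libraries. The fits and the recovery were tested on simulated data.

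Named were the 10 members and, from each pathway list, up to 2 genes per direction with the largest change past the threshold and an average of 5 TPM or more in whichever group was higher. The 5 genes most like Fos and Egr1 by Pearson r, at 5 TPM or more, were named too. Gene positions are GENCODE M21.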

Additional observations from a re-analysis of the deposited data

Results flagged for a closer look

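MexHT mCherry-negative replicate 1 of the gg8+OMP mice lay far above the other 4 libraries of its group for 6 of the 10 genes. It had 1882 TPM of Fos, 1238 TPM of Jun, 1068 TPM of Junb, 780.2 TPM of Egr1, 911 TPM of Nr4a1 and 565 TPM of Dusp1. Its gap to the nearest library spanned 0.771 (Nr4a1) to 0.928 (Jun) of the group's range. Chance flags about 1 in 20 sets of 1 gene in 1 group, and 20 such sets were tested. The 6 flags share 1 library and the members move together across libraries, so they are not 6 separate flags. The difference in Npas4 between MexHT and HT libraries was larger in OSN than in mCherry-negative cells, by 1.48 on the log2 scale (limma interaction, adjusted p = 0.0316). It was the 1 member of 10 interactions tested to pass, where 12.4% of all genes tested passed. The call was lost with a pseudocount of 0.1, with voom, and without HT mCherry-negative replicate 1 or 2 or HT OSN replicate 3.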

How the results depend on the processing

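Of 900 values under alternatives 20 lost and 20 gained the call, and 31, none called in either fit, changed direction, and the rest kept both; the cause was not tested. MexHT against HT OSN called 329 genes and 1 member with Xist as a covariate, where Fosb was -0.24, Jun 0.33, Junb 0.58 and Dusp1 0.15 (log2); voom gave Junb 0.0343 and Dusp1 0.0536 and called Nr4a1 too (0.37, adjusted p = 0.0378). In mCherry-negative cells 1 gene was called with no filter and 24 with all groups in one fit. For HT fractions voom called 1061 genes (6.23%) and 1 member, and the mouse block 4967 (29.2%) and 9. One fit of all groups called 2750 genes (16.4%) and 5 members there. For gg8 fractions a pseudocount of 0.1 called 646 genes. For the interaction, 0 members were called with a pseudocount of 0.1 (12.2% of all genes) or voom (10.6%), and 2 with the mouse block (15.5%). Scaling by median of ratios gave Fos -0.0315 in the interaction.

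Leaving out each library gave 3745 to 6506 genes and 3 to 6 members (MexHT against HT OSN), 0 to 4 genes (mCherry-negative), 660 to 4183 genes and 0 to 5 members (HT fractions), 0 to 3703 and 0 to 2 (gg8 fractions), and 1195 to 2483 and 0 to 2 (interaction). Log2 values spanned 0 in OSN for Fosb (-0.32 to 0.43), Junb (-0.28 to 0.14) and Dusp1 (-0.11 to 0.16); in mCherry-negative cells for Fos (-0.0499 to 0.449), Jun (-0.15 to 0.14), Egr1 (-0.22 to 0.28) and Ier2 (-0.25 to 0.12); in gg8 fractions for Nr4a1 (-1.10 to 0.22) and Dusp1 (-0.62 to 0.14); and in the interaction for Fos (-0.16 to 0.34) and Arc (-0.18 to 0.57). Where 1 library was left in a gg8 group, it is assumed to vary like the other.

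MexHT and HT mice are different mice. Same-numbered OSN libraries did not all deviate together (r -0.23 to 0.13), and the number as a replicate block gave Arc 1.13 (adjusted p = 0.0762). Same-numbered mCherry-negative libraries did (0.23 to 0.42 in 3 pairs, -0.40 to 0.02 for other numbers); the block there called 0 genes and gave Ier2 0.0117. The block changed no other member's call than those given here and beside the results. Npas4, at 27 counts in its lowest library, is limited most by depth.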
